A study of Homo sapiens with 12 samples.

Results

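The genes described here are 53 genes of G2 phase and mitosis, taken by symbol from a fixed list and sorted by what their products do in the dividing cell. They cover mitotic entry and exit (12 genes), the centromere, kinetochore and spindle checkpoint (9), the chromosomal passenger complex (3), the spindle and centrosome (14), cytokinesis (9) and chromosome structure (6). All 53 had a row in both count tables, out of 27064 symbols, and all 53 passed the filter on low counts in every comparison. The libraries formed 4 groups of 3: H226 cells given 100 nM SWTX-143, H226 cells given DMSO, ACHN cells given 100 nM SWTX-143 and ACHN cells given DMSO, each held overnight. NCI-H226 (H226) is described by the submitters as a mesothelioma line and ACHN as a kidney cancer line. Both are said to be NF2-deficient, a defect that the treated and the DMSO cells of each line share. NF2 encodes merlin, an activator of the Hippo kinases. SWTX-143 irreversibly inhibits TEAD proteins, the DNA-binding partners of the Hippo-controlled coactivators YAP and TAZ. Each line is a single line, so nothing here bears on other lines of either tumour.

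Cells make the RNA of mitotic genes in a wave that climbs through G2 and collapses as they divide. In G1 the DREAM complex holds these promoters silent. Later its MuvB core exchanges partners for B-MYB and then FOXM1 and switches the same promoters on. The MuvB core docks through LIN54 on a short promoter element, the cell cycle genes homology region (CHR). The products assemble the kinetochore, which grips spindle microtubules, the checkpoint that waits for every kinetochore to be attached, and the contractile ring that pinches the daughter cells apart. RNA from a whole culture does not tell fewer cells in mitosis from less RNA per mitotic cell.

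The CHR was looked for in RefSeq promoter windows (GRCh38.p14) that run from 250 bases before to 50 bases after each transcription start. The search took TTTGAA or TTCGAA on either strand, and TTTAAA, a variant, was counted apart. The windows printed below, 30 bases each on the strand of the gene, are shown as examples: 4 members that fell in H226 cells and hold the CHR on the strand of the gene, 3 textbook CHR genes that were not called, and the pair that rose. The capitals mark the CHR letters, or the variant in KIF20A and CENPE, on which each window was placed. The lower-case letters of the ANLN window also hold a CHR match on the opposite strand. Those of the CENPE window also hold TTTAAA. The first 4 genes were lower in treated H226 cells, the next 3 were not called, and the last pair were higher.
ANLN: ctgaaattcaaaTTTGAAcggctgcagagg
KIF23: ctgattggcccgTTTGAAatgcgccaggcg
HJURP: gacgcaaatttgTTTGAAaggcccaatcag
NCAPG: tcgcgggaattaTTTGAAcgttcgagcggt
CDK1: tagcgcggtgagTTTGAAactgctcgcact
PLK1: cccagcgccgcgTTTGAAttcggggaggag
CCNB2: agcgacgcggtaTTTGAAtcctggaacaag
KIF20A: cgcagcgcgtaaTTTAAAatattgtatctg
CENPE: ggaaattttaaaTTTAAAggcggggcggcc
The ANLN window lies at chr7:36389830-36389859 on the plus strand, with the first motif base at position −20 from the start. That of KIF23 lies at chr15:69414282-69414311 (plus, position −55), that of HJURP at chr2:233854629-233854658 (minus, −111) and that of NCAPG at chr4:17810932-17810961 (plus, −35). The CDK1 window lies at chr10:60778453-60778482 (plus, −13), the PLK1 window at chr16:23678848-23678877 (plus, −29) and the CCNB2 window at chr15:59105105-59105134 (plus, −29). The windows of KIF20A and CENPE lie at chr5:138179059-138179088 (plus, −41) and chr4:103198388-103198417 (minus, −62).

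Most members with a promoter entry carried the element. Of the 46 members with a promoter entry, 37 (80.4%) held a CHR, against 1556 of 10088 genes (15.4%) tested in H226 that had an entry. With TTTGAA alone the count was 36 of 46, and with TTTAAA added it was 41 of 46. CCAAT, the letters that NF-Y binds and a frequent neighbour of the CHR, stood in 36 members (78.3%) and in 42.8% of tested genes. GGAATG, the core that TEAD factors bind, stood in 7 members (15.2%) and in 15.2% of tested genes. No motif searched contains another. The 46 members have 53 windows, since some have more than 1 start, and a letter run in overlapping windows counts once in each. These windows held 55 CHR matches, of which 37 (67.3%) began within 50 bases of the start. In the other tested genes 508 of 1903 matches (26.7%) did. A match describes the letters and shows no binding. RACGAP1, UBE2C, TPX2, FOXM1, TTK, CDCA2 and AURKA had no entry in the table.

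**Figure D1:**
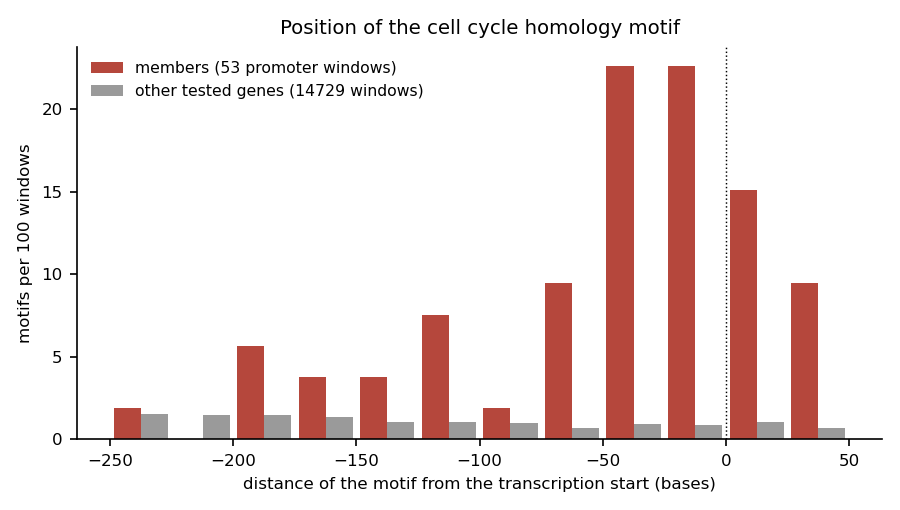
Matches to the CHR (TTTGAA or TTCGAA, either strand) per 100 promoter windows, in bins of distance from the transcription start in bases, for the members (red, 53 windows) and the other tested genes (grey). The member bars crowd around the start, where 37 of 55 matches lie within 50 bases. The grey bars lie between 0.64 and 1.51 per 100 windows and are highest furthest upstream.

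The libraries were even in depth, with 9690980 to 11262663 counts in H226 and 10113810 to 11206457 in ACHN. CTGF, a TEAD target read as a check of the treatment label, averaged 13.1 ± 1.18 CPM under SWTX-143 and 76.0 ± 7.10 CPM under DMSO in H226 cells (log2 fold change −2.53 ± 0.08, adjusted p = 1.79e-29) and 22.0 ± 2.08 CPM under SWTX-143 and 115 ± 1.68 CPM under DMSO in ACHN cells (−2.39 ± 0.06, adjusted p = 5.18e-35). The targets CYR61 (−1.41 ± 0.04 in H226, −1.28 ± 0.04 in ACHN) and ANKRD1 (−2.09 ± 0.15 in H226, −1.38 ± 0.11 in ACHN) fell as well. The labelled tissues matched their markers, since 8 mesothelial markers summed to 3883 to 4125 CPM in treated H226 libraries, 3412 to 3593 in H226 DMSO libraries, 158 to 167 in treated ACHN libraries and 194 to 197 in ACHN DMSO libraries. The 6 kidney markers summed to 15.5 to 17.5 CPM in treated H226 libraries, 8.82 to 10.05 in H226 DMSO libraries, 859 to 919 in treated ACHN libraries and 834 to 867 in ACHN DMSO libraries. The 5 immune markers summed to at most 3.66 CPM and the 4 endothelial markers to at most 1.23 CPM in any library, and PTPRC had no count. The part of these shifts in the values below was not tested. CPM here are counts scaled to a common library size after TMM within each line, except where levels under DMSO are compared between the lines. Beside CPM the ± gives the SD and beside a log2 fold change the SE, always from 3 libraries a group (n = 3). Adjusted p-values come from edgeR's quasi-likelihood test with Benjamini-Hochberg adjustment over all tested genes, and a gene is called when its value is under 0.05. Nothing in the labels says that replicates were separate cultures. The p-values therefore weigh each difference only against the spread estimated from these samples, and that spread may be technical.

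In H226 cells given SWTX-143 a minority of the 53 members were lower, while CDK1, CCNB1 and PLK1 were not called. Of 53 members 16 fell, 2 rose and 35 were not called. The falls were led by the cytokinesis scaffold ANLN, the spindle pole gene ASPM and the midzone kinesin gene KIF23, and the rises were KIF20A and CENPE. Among all 13484 tested genes 40.7% were called, 21.6% lower and 19.0% higher, and among the members 34.0% were called, 30.2% lower and 3.77% higher. These shares hold for the member list only. Of 71 other mitotic genes, described below, 47 (66.2%) fell and 2 (2.82%) rose in H226. The median log2 fold change of the members was −0.087 and their range ran from −0.55 to 0.21, against a median of −0.0011 for all tested genes. Most shifts were thus small, and 38 of 53 were negative, against 6772 of 13484 tested genes. All 3 treated libraries lay below all 3 DMSO libraries for 19 members and above them for 4, where 25.7% and 23.0% of tested genes did so. Under upper quartile scaling 11 members were lower and 3 higher, and the split of all tested genes became 2324 lower and 3283 higher, against 2919 and 2567 here. The count of 2 higher members became 1 without SWTX-143 replicate 1, DMSO replicate 2 or DMSO replicate 3.

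In ACHN cells 11 of 53 members fell, 0 rose and 42 were not called by edgeR, where 17.8% of 13483 tested genes were called, 9.37% lower and 8.43% higher. The 11 lower members make 20.8%, and 16 members were lower and 1 higher at an unadjusted p under 0.05, against 14.6% and 14.1% of tested genes. The median was −0.060, with a range of −0.31 to 0.21, against a median of 0.0013 over all tested genes. Of the 53 members 44 were negative, against 6695 of 13483 tested genes. The 11 were CDC20, CDCA3, CENPF, AURKB, AURKA, CKAP5, ASPM, ANLN, KIF23, TOP2A and MKI67. Treated libraries lay wholly below DMSO libraries for 22 members and wholly above for 3, against 16.1% and 15.8% of tested genes. DESeq2 called 9 lower and 0 higher, and the count of lower members was 6 without SWTX-143 replicate 1 and 7 without DMSO replicate 2 or DMSO replicate 3. Under upper quartile scaling the split was 8 lower and 1 higher, with 1028 lower and 1450 higher among all tested genes, against 1264 and 1137 here.

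**Figure D2:**
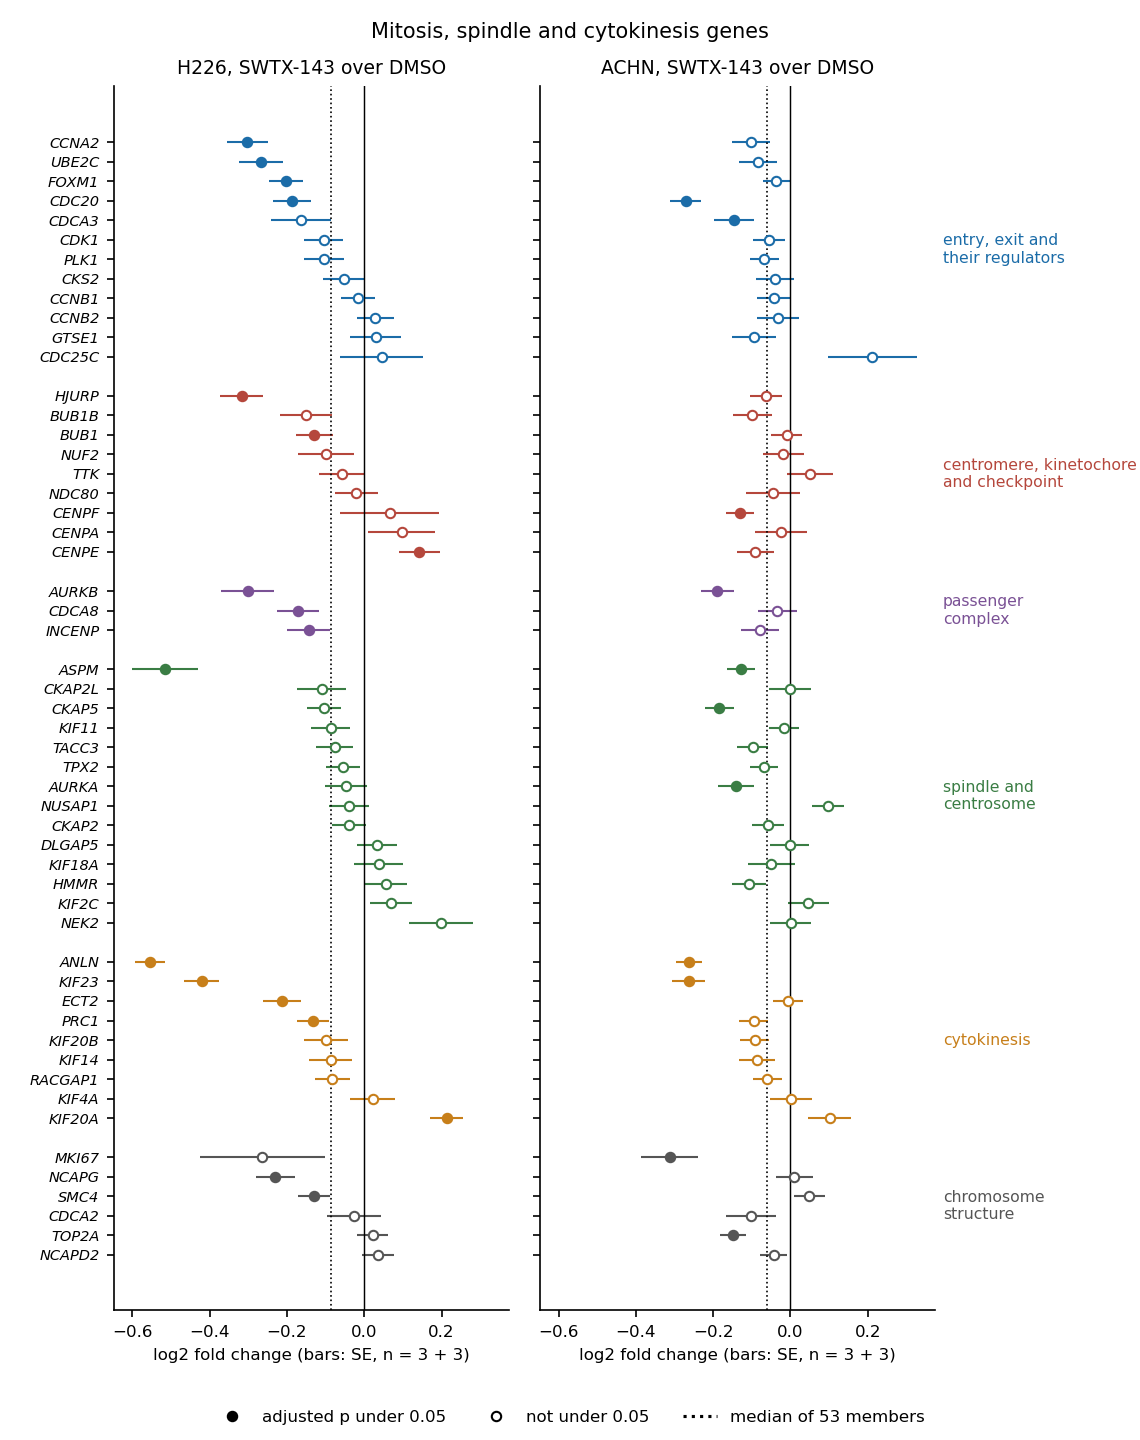
Log2 fold change (SWTX-143 over DMSO) of each of the 53 members in H226 (left) and ACHN (right), sorted by role, with bars for the SE (n = 3 libraries a group), filled points for adjusted p under 0.05 and a dotted line at the median of the members. ANLN and ASPM reach furthest left in H226, KIF20A furthest right, and the ACHN points lie closer to 0.

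Cytokinesis held the largest change of any member in H226 cells. Of its 9 genes 4 fell and 1 rose in H226 cells, and 2 fell in ACHN cells, with a median of −0.099 in H226 and −0.087 in ACHN. The falls make 44.4% in H226 and 22.2% in ACHN, against 21.6% and 9.37% of all tested genes. ANLN encodes anillin, which binds actin, septins and the GTPase RhoA and organises the contractile ring. It had 640.1, 622 and 616 CPM in the 3 SWTX-143 libraries of H226, against 904, 954 and 901 CPM in the DMSO libraries, so the groups stood well apart. ANLN fell by 31.9% there (log2 fold change −0.55 ± 0.04, adjusted p = 6.1e-18). In ACHN it had 655, 678 and 673 CPM under SWTX-143, against 818, 794 and 794 CPM under DMSO, a smaller fall on the log2 scale, again without overlap (−0.26 ± 0.03, adjusted p = 2.16e-08). It overlaps KIAA0895 on the other strand, whose reads the counts may hold.

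Centralspindlin, which bundles the midzone and recruits the RhoA activator to it, pairs a kinesin with a GTPase-activating protein. The kinesin KIF23 (MKLP1) had 148, 146 and 140.4 CPM in treated H226 cells, against 198, 191 and 193 CPM in DMSO cells. It fell by 25.3% (−0.42 ± 0.04, adjusted p = 1.19e-11), with no overlap between the groups. The ACHN values were 131, 126 and 129.8 CPM under SWTX-143, against 154, 152 and 158 CPM under DMSO, again without overlap (−0.26 ± 0.04, adjusted p = 3.51e-06). Its partner RACGAP1 averaged 151 ± 7.29 CPM under SWTX-143 and 159 ± 5.02 CPM under DMSO in H226 and was not called (−0.08 ± 0.05, adjusted p = 0.152), nor was it in ACHN (−0.06 ± 0.04, adjusted p = 0.3).

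ECT2, the RhoA exchange factor that centralspindlin recruits, had 113, 109 and 100.4 CPM in treated H226 cells, against 123, 124 and 126 CPM in DMSO cells, and fell (−0.21 ± 0.05, adjusted p = 0.00034). Its ACHN libraries overlapped, at 273, 283 and 289 CPM under SWTX-143, against 298, 268 and 282 CPM under DMSO (−0.01 ± 0.04, adjusted p = 0.944). PRC1, which crosslinks antiparallel midzone microtubules, fell slightly in H226 (−0.13 ± 0.04, adjusted p = 0.00842). That call was lost without SWTX-143 replicate 2 or DMSO replicate 3, under upper quartile scaling and with library size alone (adjusted p up to 0.107), and PRC1-AS1 overlaps the gene.

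KIF20A went the other way. This kinesin (MKLP2) carries the passenger complex from chromosomes to the midzone at anaphase. It had 201, 195 and 201 CPM in treated H226 cells, against 170.4, 174 and 171 CPM in DMSO cells, every treated library being above every DMSO library. The rise was 15.9% (0.21 ± 0.04, adjusted p = 5.04e-05) and kept its call under all 13 alternatives. ACHN had 67.2, 68.8 and 69.3 CPM under SWTX-143, against 63.5, 61.0 and 66.7 CPM under DMSO, also without overlap but not called (0.10 ± 0.05, adjusted p = 0.219). KIF20A overlaps CDC23, an anaphase-promoting complex gene, on the opposite strand. The other cytokinesis kinesins, KIF20B, KIF14 and KIF4A, were not called in either line, with H226 values from −0.10 to 0.02.

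**Figure D3:**
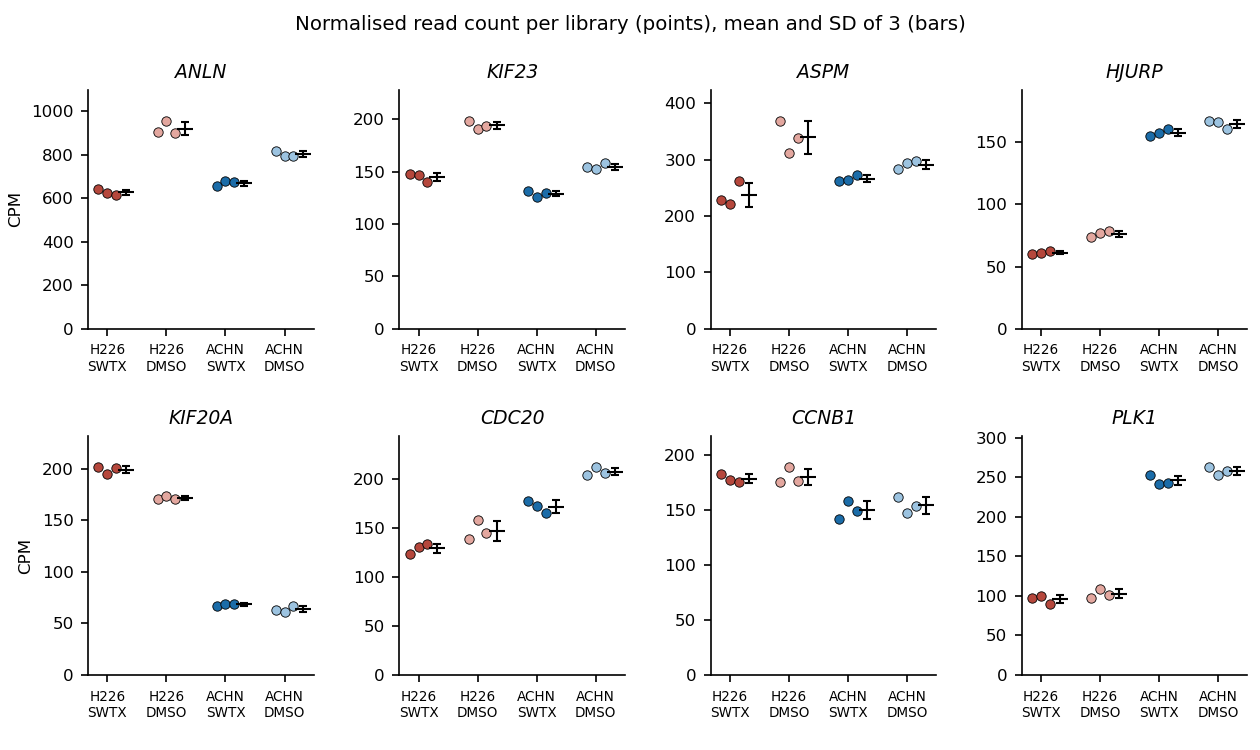
CPM of 8 members in every library, with the mean and SD of 3 libraries beside the points, for H226 SWTX-143, H226 DMSO, ACHN SWTX-143 and ACHN DMSO from left to right in each panel; axes start at 0. The treated and DMSO libraries separate for ANLN and KIF23 in both lines, KIF20A is higher in treated H226 cells, and the CCNB1 groups overlap.

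Among the 12 entry and exit genes, 4 fell in H226 cells (CCNA2, UBE2C, FOXM1 and CDC20) and 2 in ACHN cells (CDC20 and CDCA3), with a median of −0.10 in H226 and −0.061 in ACHN. That is 33.3% lower in H226 and 16.7% in ACHN, against 21.6% and 9.37% of all tested genes. CDK1, CCNB1 and PLK1 were not among the genes that fell. CDK1, the mitotic kinase, had 90.0, 87.0 and 89.0 CPM in treated H226 cells, against 94.9, 99.5 and 91.4 CPM in DMSO cells. Each treated library lay under each DMSO library, but the shift did not pass the test (−0.11 ± 0.05, adjusted p = 0.0955). Its ACHN libraries overlapped at 173, 189.7 and 173 CPM under SWTX-143, against 184, 182 and 189 CPM under DMSO (−0.06 ± 0.04, adjusted p = 0.41).

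CCNB1, the cyclin that activates CDK1 at entry, had 183, 177 and 175 CPM in treated H226 cells, against 175, 189 and 177 CPM in DMSO cells. The 95% interval of its log2 fold change ran from −0.11 to 0.07 (−0.02 ± 0.04, adjusted p = 0.795), and its sign turned under upper quartile scaling, library size alone and the 5 CPM filter. In ACHN it had 142, 158 and 149 CPM under SWTX-143, against 162, 147 and 154 CPM under DMSO, with an interval of −0.13 to 0.05 (−0.04 ± 0.04, adjusted p = 0.576). Its groups overlapped in both lines.

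The kinase PLK1, which acts from entry to cytokinesis, had 97.7, 99.3 and 89.9 CPM in treated H226 cells, against 97.9, 109 and 101 CPM in DMSO cells, and the groups overlapped (−0.10 ± 0.05, adjusted p = 0.109). ACHN values were 253, 242 and 243 CPM under SWTX-143, against 263, 253 and 258 CPM under DMSO, apart but by little (−0.07 ± 0.04, adjusted p = 0.24).

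CCNA2, the cyclin of S phase and G2, had 72.1, 76.1 and 69.3 CPM in treated H226 cells, against 89.4, 93.6 and 85.1 CPM in DMSO cells. It fell by 18.9% (−0.30 ± 0.05, adjusted p = 5.46e-06), the largest fall of the entry and exit genes in that line, and overlaps EXOSC9. In ACHN it had 104, 115 and 114 CPM under SWTX-143, against 125, 112 and 119 CPM under DMSO, with overlap (−0.10 ± 0.05, adjusted p = 0.145). FOXM1, the forkhead factor that switches on late cell cycle promoters, had 196, 192 and 192 CPM in treated H226 cells, against 211, 225 and 230.5 CPM in DMSO cells. Its fall in H226 (−0.20 ± 0.04, adjusted p = 0.000131) was modest, and the ACHN values of 401, 388 and 401 CPM under SWTX-143, against 401, 407 and 412 CPM under DMSO, were not called (−0.04 ± 0.04, adjusted p = 0.542).

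Exit from mitosis needs the anaphase-promoting complex (APC/C), a ubiquitin ligase. CDC20, its mitotic coactivator, had 124, 130.3 and 133 CPM in treated H226 cells, against 139, 158 and 145 CPM in DMSO cells (−0.19 ± 0.05, adjusted p = 0.00147). ACHN had 178, 173 and 165 CPM under SWTX-143, against 205, 212 and 206 CPM under DMSO (−0.27 ± 0.04, adjusted p = 5.45e-07). It thus fell in both lines without overlap, and was the member with the largest called fall in ACHN after MKI67. UBE2C, the E2 enzyme that starts the ubiquitin chain, had 64.2, 59.1 and 61.3 CPM in treated H226 cells, against 68.8, 77.5 and 76.0 CPM in DMSO cells, and fell (−0.27 ± 0.06, adjusted p = 0.000107). In ACHN it had 84.9, 81.6 and 82.8 CPM under SWTX-143, against 90.7, 88.8 and 85.0 CPM under DMSO, a gap that was not called (−0.08 ± 0.05, adjusted p = 0.275). CDCA3 fell in ACHN (−0.15 ± 0.05, adjusted p = 0.0378), a call lost when any 1 ACHN library other than SWTX-143 replicate 3 was left out, under upper quartile scaling, with library size alone, by DESeq2 and with no filter (adjusted p up to 0.159). The gene overlaps GNB3. CDC25C, the phosphatase that activates CDK1, had the largest positive value of all members in ACHN and was not called (0.21 ± 0.12, adjusted p = 0.22); it overlaps FAM53C. CCNB2, CKS2 and GTSE1 were not called in either line, nor was CDC25C in H226.

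All 3 passenger complex genes among the members fell in H226 cells, with a median of −0.17, and 1 of 3 fell in ACHN cells. BIRC5 was counted with the other mitotic genes and not in this role. Among all tested genes 21.6% were lower in H226 and 9.37% in ACHN. This complex corrects faulty kinetochore attachments and later moves to the midzone. Its kinase AURKB had 31.7, 34.5 and 31.4 CPM in treated H226 cells, against 41.1, 40.5 and 38.6 CPM in DMSO cells (−0.30 ± 0.07, adjusted p = 0.000274). ACHN had 128, 126 and 129 CPM under SWTX-143, against 145, 148 and 145 CPM under DMSO, and AURKB fell there too (−0.19 ± 0.04, adjusted p = 0.000731). The groups did not overlap in either line. CDCA8 (borealin), which targets the complex to the centromere, averaged 65.7 ± 2.09 CPM under SWTX-143 and 74.1 ± 2.32 CPM under DMSO in H226 (−0.17 ± 0.05, adjusted p = 0.00832), and the scaffold INCENP averaged 64.4 ± 3.77 CPM under SWTX-143 and 71.2 ± 1.55 CPM under DMSO (−0.14 ± 0.06, adjusted p = 0.034). CDCA8 lost its call without SWTX-143 replicate 2 or DMSO replicate 2, under upper quartile scaling and by DESeq2 (adjusted p up to 0.0633). INCENP lost it without SWTX-143 replicate 2 or any 1 DMSO library, under upper quartile scaling, with library size alone, by DESeq2 and with the 5 CPM filter (up to 0.237).

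Of the 9 centromere, kinetochore and checkpoint genes, 2 fell and 1 rose in H226 cells and 1 fell in ACHN cells, with a median of −0.059 in H226 and −0.046 in ACHN. The shares lower, 22.2% in H226 and 11.1% in ACHN, were near the 21.6% and 9.37% of all tested genes. HJURP is the chaperone that loads the centromeric histone CENP-A. It had 60.0, 61.0 and 62.5 CPM in treated H226 cells, against 73.6, 76.7 and 78.6 CPM in DMSO cells, with no overlap, and fell by 19.8% (−0.32 ± 0.05, adjusted p = 2.93e-06). ACHN had 155, 157 and 160.4 CPM under SWTX-143, against 167, 166 and 161 CPM under DMSO, and was not called (−0.06 ± 0.04, adjusted p = 0.319). CENPA, which encodes the histone it carries, averaged 21.4 ± 0.630 CPM under SWTX-143 and 20.04 ± 1.56 CPM under DMSO in H226 and was not called (0.10 ± 0.09, adjusted p = 0.393).

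CENPE, the kinesin that brings stray chromosomes to the spindle equator, had 94.01, 83.8 and 91.6 CPM in treated H226 cells, against 83.3, 79.8 and 80.8 CPM in DMSO cells. It rose (0.14 ± 0.05, adjusted p = 0.0268), but the call was lost without SWTX-143 replicate 1 (adjusted p = 0.162), DMSO replicate 2 (0.102) or DMSO replicate 3 (0.0743), and by DESeq2 (0.104). In ACHN it had 99.8, 100.1 and 106 CPM under SWTX-143, against 112, 105 and 108 CPM under DMSO, not called (−0.09 ± 0.05, adjusted p = 0.199). The checkpoint kinase BUB1 fell in H226 (−0.13 ± 0.05, adjusted p = 0.0275), a call lost without SWTX-143 replicate 2 or 3 or DMSO replicate 1 or 2, under upper quartile scaling, with library size alone, by DESeq2 and with the 5 CPM filter (adjusted p up to 0.191). The checkpoint genes TTK and BUB1B and the microtubule-binding subunits NDC80 and NUF2 were not called in either line.

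CENPF, a large protein of the outer kinetochore, had 516, 522 and 555 CPM in treated ACHN cells, against 554, 596 and 595 CPM in DMSO cells. It fell (−0.13 ± 0.04, adjusted p = 0.00703) although the highest treated library and the lowest DMSO library overlapped slightly, and the call was lost without SWTX-143 replicate 1 (adjusted p = 0.0779), DMSO replicate 2 (0.0668) or DMSO replicate 3 (0.079). H226 had 125, 116 and 151 CPM under SWTX-143, against 135, 114 and 125 CPM under DMSO, and was not called (0.07 ± 0.13, adjusted p = 0.736). Treated H226 replicate 3 stood above the others there, and without it the log2 fold change was −0.05. Long transcripts at large varied between the H226 libraries, in both directions. Over genes with coding transcripts of at least 7000 bases the median log2 ratio to the DMSO mean was 0.077 in treated replicate 3. It was −0.0035 and −0.055 in treated replicates 1 and 2, and 0.030, −0.040 and 0.012 in DMSO replicates 1 to 3. CENPE, CENPF, ASPM, CKAP5, KIF14 and MKI67 are the 6 members of that length, and the part of transcript length in their values was not tested.

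The 14 spindle and centrosome genes gave 1 fall in H226 cells and 3 in ACHN cells, with a median of −0.044 in H226 and −0.053 in ACHN. These are 7.14% in H226 and 21.4% in ACHN, against 21.6% and 9.37% of all tested genes. ASPM, a spindle pole protein whose loss causes microcephaly, had 228, 221 and 262 CPM in treated H226 cells, against 368, 311 and 339 CPM in DMSO cells. It fell by 30.1% without overlap (−0.52 ± 0.09, adjusted p = 0.00263), and without treated replicate 3 the value was −0.59 (adjusted p = 6.8e-21). ACHN had 262, 264 and 273 CPM under SWTX-143, against 283, 294 and 297 CPM under DMSO, a small fall (−0.13 ± 0.04, adjusted p = 0.0109). That call was lost without SWTX-143 replicate 1 (adjusted p = 0.0672), DMSO replicate 2 (0.057) or DMSO replicate 3 (0.0938), and with library size alone (0.0528).

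CKAP5 (chTOG), a microtubule polymerase, had 230.0, 226.4 and 229 CPM in treated ACHN cells, against 258, 257 and 264 CPM in DMSO cells, with no overlap, and fell (−0.18 ± 0.04, adjusted p = 0.000195). H226 had 223, 202 and 228 CPM under SWTX-143, against 234, 232 and 235 CPM under DMSO, just outside the limit (−0.10 ± 0.04, adjusted p = 0.0536). It passed without SWTX-143 replicate 3 (adjusted p = 0.00959). With all H226 libraries it moved away from the limit under upper quartile scaling (0.333), with library size alone (0.241), by DESeq2 (0.149) and with the 5 CPM filter (0.123). The centrosome kinase AURKA had 94.8, 99.2 and 96.7 CPM in treated ACHN cells, against 108, 105 and 108 CPM in DMSO cells, and fell (−0.14 ± 0.05, adjusted p = 0.0275). The call was lost when any 1 ACHN library other than SWTX-143 replicate 2 was left out, under upper quartile scaling, with library size alone and by DESeq2 (adjusted p up to 0.126). In H226 AURKA had 78.3, 76.7 and 74.0 CPM under SWTX-143, against 74.1, 80.4 and 82.3 CPM under DMSO, overlapping (−0.05 ± 0.05, adjusted p = 0.515). Its activator TPX2 was not called in H226 (−0.05 ± 0.04, adjusted p = 0.341) or ACHN (−0.07 ± 0.04, adjusted p = 0.221). Neither were the motors KIF11, KIF2C and KIF18A, nor NUSAP1, DLGAP5, HMMR, TACC3, CKAP2 and CKAP2L. KIF18A overlaps METTL15 and HMMR overlaps HMMR-AS1. NEK2, a kinase that parts the centrosomes, had the largest positive value of the group in H226 and missed the limit (0.20 ± 0.08, adjusted p = 0.0511).

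Of the 6 chromosome structure genes, 2 fell in each line, SMC4 and NCAPG in H226 and TOP2A and MKI67 in ACHN, with a median of −0.078 in H226 and −0.072 in ACHN. The 2 make 33.3% in each line, against 21.6% of all tested genes in H226 and 9.37% in ACHN. TOP2A, the topoisomerase that untangles sister chromatids, had 664, 671 and 701 CPM in treated ACHN cells, against 763, 737 and 756 CPM in DMSO cells. It fell without overlap (−0.15 ± 0.03, adjusted p = 0.00101). In H226 it had 657, 610.2 and 629 CPM under SWTX-143, against 635, 627 and 606 CPM under DMSO, with overlap and an interval of −0.06 to 0.10 (0.02 ± 0.04, adjusted p = 0.698).

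MKI67, the proliferation marker Ki-67 that coats mitotic chromosomes, had 160.0, 153 and 214 CPM in treated H226 cells, against 222, 193 and 218 CPM in DMSO cells. Treated replicate 3 lay inside the DMSO range and the other 2 below it, and the change was not called (−0.26 ± 0.16, adjusted p = 0.282). Without that replicate the value was −0.42 (adjusted p = 1.46e-14), so the result rests on 1 library. With all libraries kept, MKI67 was not called under upper quartile scaling (0.364), with library size alone (0.36), by DESeq2 (0.252) or with no filter (0.349). ACHN had 602, 592 and 655 CPM under SWTX-143, against 682, 824 and 791 CPM under DMSO, without overlap, and MKI67 fell (−0.31 ± 0.07, adjusted p = 0.028). Leaving out treated replicate 1 lost that call (adjusted p = 0.153), as did upper quartile scaling.

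Condensin compacts chromosomes as a ring of paired SMC proteins with accessory subunits. SMC4, an ATPase shared by condensin I and II, had 285, 266 and 278 CPM in treated H226 cells, against 300.4, 301 and 306 CPM in DMSO cells (−0.13 ± 0.04, adjusted p = 0.00914). The call was lost without SWTX-143 replicate 2 or DMSO replicate 3, under upper quartile scaling and with library size alone (adjusted p up to 0.117), and the gene overlaps IFT80 and TRIM59. ACHN had 290.1, 291 and 326 CPM under SWTX-143, against 304, 284 and 289 CPM under DMSO, not called (0.05 ± 0.04, adjusted p = 0.464). The condensin I subunit NCAPG had 87.95, 87.3 and 82.7 CPM in treated H226 cells, against 102, 104 and 96.1 CPM in DMSO cells, and fell without overlap (−0.23 ± 0.05, adjusted p = 0.000224). In ACHN it had 98.9, 106 and 98.2 CPM under SWTX-143, against 102, 100.0 and 99.6 CPM under DMSO, not called (0.01 ± 0.05, adjusted p = 0.92). LCORL overlaps it. NCAPD2, the other condensin I gene listed, and CDCA2, a phosphatase-targeting subunit, were not called in either line, and NCAPD2 overlaps MRPL51.

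The difference between lines was tested in 1 fit of all 12 libraries, as the H226 log2 fold change minus that of ACHN. It called 10 members, 8 lower and 2 higher. Among 14664 tested genes 15.6% were called, 9.72% lower and 5.89% higher. ANLN, ASPM, HJURP, NCAPG, ECT2, CCNA2, SMC4 and FOXM1 had the lower value in H226, with differences from −0.39 ± 0.07 for ASPM to −0.17 ± 0.06 for FOXM1. CENPE (0.23 ± 0.07, adjusted p = 0.0206) and TOP2A (0.16 ± 0.05, adjusted p = 0.027) had the higher value in H226. KIF23 (−0.16 ± 0.06, adjusted p = 0.0608), UBE2C (−0.19 ± 0.08, adjusted p = 0.08), AURKB (−0.12 ± 0.08, adjusted p = 0.369) and CDC20 (0.08 ± 0.06, adjusted p = 0.49) were not called to differ. ANLN (−0.30 ± 0.05, adjusted p = 1.05e-05) and ASPM (−0.39 ± 0.07, adjusted p = 0.000274) kept their calls under all 19 alternatives, and each of the other 8 lost it under at least 2. DESeq2 called 3 lower and 2 higher, upper quartile scaling gave 4 lower and 3 higher, leaving out any 1 H226 library gave 2 to 5 lower and 2 to 3 higher, and leaving out any 1 ACHN library gave 4 to 7 lower and 0 to 2 higher.

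**Figure D4:**
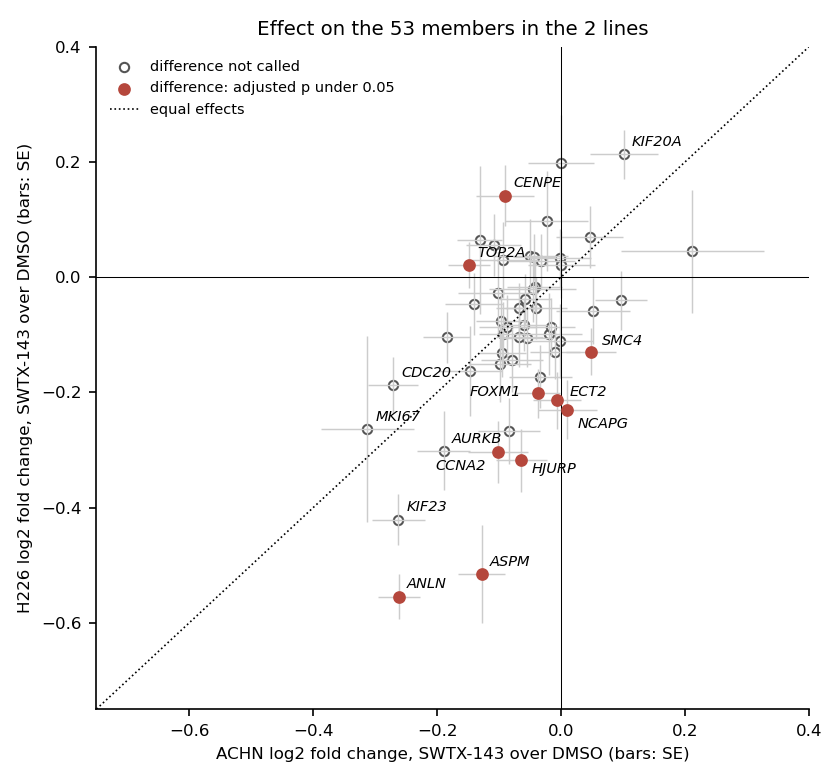
Log2 fold change under SWTX-143 of each of the 53 members in H226 (vertical) against ACHN (horizontal), with SE bars; red points have adjusted p under 0.05 for the difference between lines and the dotted line marks equal effects. ANLN and ASPM lie furthest below the line, and CENPE and TOP2A lie above it.

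The members were read beside 4 other cell cycle lists, described by counts only. Among all tested genes 21.6% were lower and 19.0% higher in H226, and 9.37% and 8.43% in ACHN. Of 71 other mitotic genes, 47 (66.2%) fell and 2 (2.82%) rose in H226 (median −0.21), against 9 (12.7%) and 1 (1.41%) in ACHN (median −0.044). The checkpoint remodelling ATPase TRIP13 (−0.72 ± 0.06), the condensin genes NCAPD3 (−0.58 ± 0.05) and SMC2 (−0.48 ± 0.04) and the kinetochore gene ZWINT (−0.53 ± 0.06) had the smallest H226 p-values there. In ACHN these were the kinetochore dynein adaptor SPDL1, which averaged 99.6 ± 2.33 CPM under SWTX-143 and 139 ± 6.85 CPM under DMSO (−0.48 ± 0.05, adjusted p = 3.41e-12), the kinesin KIF18B (−0.27 ± 0.05), SPAG5 (−0.18 ± 0.04) and FAM83D (−0.24 ± 0.06). SPDL1 fell further there than any of the 53 members, while its H226 value was −0.20 ± 0.06. TRIP13 overlaps BRD9 and SPAG5 overlaps SPAG5-AS1.

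The APC/C list of 16 genes had 8 lower and 1 higher in H226 (median −0.15) and 3 lower in ACHN (median −0.023). UBE2S, the E2 that lengthens the chains begun by UBE2C, averaged 123 ± 2.92 CPM under SWTX-143 and 166 ± 6.18 CPM under DMSO in H226 (−0.44 ± 0.05, adjusted p = 1.28e-11) and 159.7 ± 10.2 CPM under SWTX-143 and 205 ± 5.40 CPM under DMSO in ACHN (−0.36 ± 0.04, adjusted p = 1.93e-09). The subunit genes ANAPC7 (−0.48 ± 0.07), ANAPC1 (−0.29 ± 0.05) and ANAPC10 (−0.46 ± 0.09) fell in H226, and ANAPC13 (−0.27 ± 0.06) and ANAPC1 (−0.14 ± 0.04) fell in ACHN. ANAPC4 was not called in ACHN (−0.15 ± 0.08, adjusted p = 0.204). ANAPC10 overlaps ABCE1 and ANAPC13 overlaps CEP63.

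The 12 genes of the MuvB and DREAM complexes, the regulators of CHR promoters, divided. In H226 5 (41.7%) fell and 2 (16.7%) rose (median −0.080), and in ACHN 1 (8.33%) fell and 2 (16.7%) rose (median −0.014). Among all tested genes 21.6% were lower and 19.0% higher in H226, and 9.37% and 8.43% in ACHN. MYBL2, which encodes B-MYB, averaged 95.5 ± 1.16 CPM under SWTX-143 and 132 ± 9.74 CPM under DMSO in H226 and fell (−0.46 ± 0.05, adjusted p = 4.58e-11), as did E2F4 (−0.36 ± 0.05) and TFDP1 (−0.30 ± 0.04). RBL2, the pocket protein p130 of the repressive complex, rose in H226 (0.28 ± 0.05, adjusted p = 1.42e-05) and in ACHN (0.13 ± 0.04, adjusted p = 0.0316), and it overlaps AKTIP. TFDP2 rose in ACHN (0.31 ± 0.07, adjusted p = 0.000405) while E2F4 fell there (−0.14 ± 0.04, adjusted p = 0.0203), and the MuvB subunit gene LIN9 was not called (0.12 ± 0.09, adjusted p = 0.377). ACHN MYBL2 was not called either (−0.03 ± 0.05, adjusted p = 0.727).

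Of 46 G1/S and replication genes, whose RNA peaks earlier in the cycle, 43 fell in H226, with a median of −0.58. They make 93.5%, against 21.6% of all tested genes. In ACHN 2 (4.35%) fell and 1 (2.17%) rose, with a median of −0.039, where 9.37% and 8.43% of all tested genes did. The largest H226 fold changes in the member list were thus smaller than the median of this list. UHRF1 (−1.23 ± 0.07), CDC6 (−1.03 ± 0.06), MCM2 (−0.81 ± 0.05) and MCM4 (−0.69 ± 0.05) had its smallest H226 p-values. In ACHN CDC6 (−0.14 ± 0.04, adjusted p = 0.0166) and RRM2 (−0.12 ± 0.04, adjusted p = 0.0294) fell, and ORC1 was not called (0.17 ± 0.07, adjusted p = 0.0857). MCM2 overlaps TPRA1. In promoters, 2 of the 39 listed G1/S genes with an entry (5.13%) held a CHR, against 34 of 56 other mitotic genes (60.7%).

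**Figure D5:**
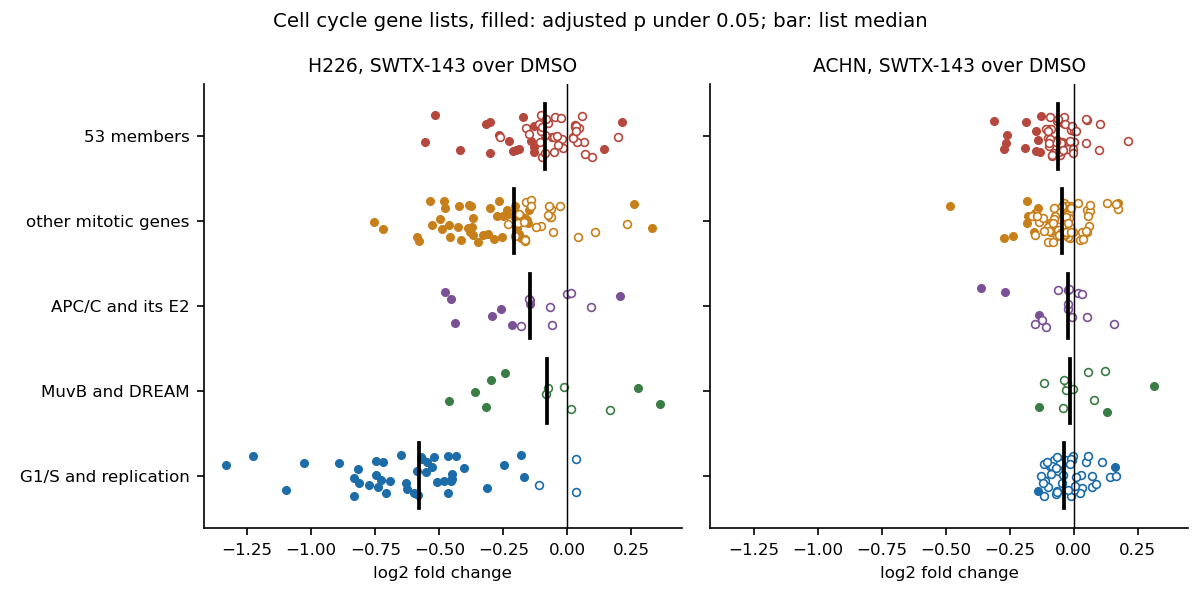
Log2 fold change (SWTX-143 over DMSO) of every tested gene of the member list and 4 comparison lists in H226 (left) and ACHN (right), with filled points for adjusted p under 0.05 and a bar at each list's median. The H226 medians run from −0.080 for the MuvB and DREAM genes, close to −0.087 for the 53 members, to −0.58 for the G1/S and replication genes, and the ACHN medians lie between −0.060 and −0.014.

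The CHR was held by members that fell and by members that were not called. In H226, 12 of the 14 members called lower with a promoter entry held it, as did 25 of 30 not called. Both members called higher, KIF20A and CENPE, lacked it and held TTTAAA. CCNB1 and KIF2C likewise lacked the CHR and held TTTAAA, and were not called. TTTAAA was not particular to these genes. It also stood beside a CHR in ASPM and KIF23, which fell, and in members not called, among them CDK1, PLK1 and CCNB2. The CENPE call was lost under 4 of 13 alternatives. With so few members called higher this is a description of these windows, without a test.

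Levels under DMSO also differed between the lines. Under DMSO 34 members were lower in every H226 library than in every ACHN library, 14 were higher and 5 overlapped, while among all tested genes 42.5% were lower and 42.5% higher. The median log2 ratio of H226 over ACHN was −0.28. For this comparison the CPM were scaled together over all 12 libraries. They therefore differ from the CPM given above, which were scaled within each line. CENPF was furthest apart, at 131 CPM in H226 and 549 CPM in ACHN (log2 ratio −2.07), followed by AURKB, at 42.1 CPM in H226 and 137 CPM in ACHN (log2 ratio −1.71), and MKI67, at 222 CPM in H226 and 723 CPM in ACHN (log2 ratio −1.71). KIF20A lay at the opposite end, at 180.3 CPM in H226 and 60.2 CPM in ACHN (log2 ratio 1.58), ahead of CCNB2, at 148 CPM in H226 and 71.3 CPM in ACHN (log2 ratio 1.05). Each line was deposited as its own table, so the line and anything that differed in its handling cannot be told apart. Per kilobase of the longest coding transcript, with CPM scaled within each line, ANLN, CKS2 and TOP2A were the 3 highest members in both lines. ANLN averaged 131 CPM per kilobase in treated H226 cells and 192 in DMSO cells, and 139.7 in treated ACHN cells and 168 in DMSO cells. CDC25C was the lowest, at 6.83 CPM per kilobase in H226 DMSO cells and 5.05 in ACHN DMSO cells.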

How the data were processed

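Poly(A) RNA of H226 and ACHN cells was read on a BGISEQ-500 as paired reads of 100 bases, per the labels. The authors deposited raw read counts per gene symbol, 1 table per line, made with STAR 2.6.1d on hg19 (GRCh37) after FastQC and cutadapt, as the submitters' processing notes list them. What counted the reads, whether by strand, and on which annotation is not given in the sources used here. Where exons overlap, reads of a member and of a gene on the other strand therefore cannot be told apart. Among the members named for an overlap, the shared stretch ran from 61 bases in KIF18A to 1631 in NCAPG. It was 78 bases in ANLN and 68 in KIF20A. Such overlaps were taken from GENCODE 29 and are named where the other gene reached 10% of the member's level, which held for 11 of the 53 members.

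From the counts, each line's treatment effect was fitted with edgeR 4.0.16 in R 4.3.3, by filterByExpr, TMM and the robust quasi-likelihood F test, with Benjamini-Hochberg adjustment over all tested genes. A joint fit of 12 libraries gave the difference between lines. The SE is the fold change over the root of its F statistic. DESeq2 1.42.0, other scalings and filters, a replicate block and leaving out each library were alternatives. The fits were tested on simulated data. No 2 libraries of a group agreed within sampling noise (chi-square per degree of freedom 1.36 to 3.42). Promoter windows are RefSeq's (GRCh38.p14).

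The members, roles and lists were chosen with earlier results of these data known. Library values are given for the 8 members with the smallest p in each line, the largest change in each role, at most 8 members called in the difference and 7 textbook markers (CDK1, CCNB1, PLK1, AURKA, MKI67, TOP2A and FOXM1). From each comparison list up to 4 genes a line with the smallest p are named. A result that this rule would name in the G1/S list is not reported here. Other members named with values, such as RACGAP1, CENPA, TPX2, NEK2, CDC25C, PRC1, BUB1, CDCA3, CDCA8 and INCENP, were chosen after their values were seen.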

Additional observations from a re-analysis of the deposited data

Results flagged for a closer look

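In 10 members the response to SWTX-143 differed between the lines in the test of the difference itself, the H226 log2 fold change minus the ACHN one. They make 18.9% of the 53 members, against 15.6% of all tested genes, and 2 of the 10 kept the call under all alternatives. ANLN differed by −0.30 ± 0.05, with −0.55 in H226 and −0.26 in ACHN. The spindle pole gene ASPM differed by −0.39 ± 0.07 (H226 −0.52, ACHN −0.13), and both kept the call under all 19 alternatives. HJURP, the CENP-A chaperone, differed by −0.26 ± 0.07 (H226 −0.32, ACHN −0.06), a call lost without H226 DMSO replicate 2 or 3 (adjusted p up to 0.0633). CENPE differed by 0.23 ± 0.07 (H226 0.14, ACHN −0.09), with opposite signs in the lines. Without ACHN SWTX-143 replicate 1 or ACHN DMSO replicate 1 it was not called (adjusted p up to 0.06).

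TOP2A differed by 0.16 ± 0.05 (H226 0.02, ACHN −0.15), lost without any 1 of 4 ACHN libraries, SWTX-143 replicates 1 and 2 and DMSO replicates 1 and 3 (adjusted p up to 0.0847). NCAPG differed by −0.25 ± 0.07 (H226 −0.23, ACHN 0.01) and lost the call under DESeq2 and without H226 SWTX-143 replicate 3, H226 DMSO replicate 1 or 2 or ACHN SWTX-143 replicate 2 (adjusted p up to 0.131). ECT2 differed by −0.21 ± 0.06 (H226 −0.21, ACHN −0.01) and lost it under upper quartile scaling, DESeq2 and no filter, and without H226 SWTX-143 replicate 2 or 3, any 1 H226 DMSO library or ACHN DMSO replicate 2 (up to 0.23). FOXM1 (−0.17 ± 0.06), SMC4 (−0.18 ± 0.06) and CCNA2 (−0.21 ± 0.07) lost it under 14, 14 and 16, among them DESeq2, upper quartile scaling and every setting that left out an H226 library. The ACHN libraries whose leaving out also lost the call were SWTX-143 replicate 1 and DMSO replicates 1 and 2 for FOXM1 (adjusted p up to 0.307), SWTX-143 replicate 3 and DMSO replicates 2 and 3 for SMC4 (up to 0.242), and SWTX-143 replicates 2 and 3 and DMSO replicates 2 and 3 for CCNA2 (up to 0.345). NCAPG, SMC4, CCNA2 and ANLN overlap a gene on the other strand.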

How the results depend on the processing

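Of 18 members called in H226, 12 kept the call under all 13 alternatives, as did 6 of 11 in ACHN. Of 10 called in the difference, 2 kept it under all 19. The members' median minus that of all tested genes was −0.098 to −0.053 in every H226 and ACHN alternative. Leaving out 1 library gave, in H226, 12 to 17 lower and 1 to 3 higher members and a median of −0.097 to −0.058. In ACHN it gave 6 to 10 lower, 0 higher in each case and −0.075 to −0.052, and in the difference 2 to 7 lower, 0 to 3 higher and −0.040 to 0.032. DESeq2 left 1 higher member in H226 and, in the difference, 3 lower with a median of −0.00027. Scaling by library size alone moved the medians to −0.047 (H226) and −0.032 (ACHN), and upper quartile scaling to −0.038, −0.037 and 0.024 (difference); both gave 1 higher member in ACHN. In the difference, upper quartile scaling gave 4 lower members, DESeq2's size factors 5 with a median of 0.0060, no filter 4 with 0.013 and a 5 CPM filter 5 with 0.025. The 5 CPM filter also moved the H226 median to −0.066. Values near 0 turned sign: H226 AURKA to 0.0027 (upper quartile); H226 CCNB1 to 0.033 (upper quartile), 0.023 (library size) and 0.0045 (5 CPM); ACHN ECT2 to 0.017 (upper quartile) and 0.022 (library size); and the PLK1 difference to 0.00043 (upper quartile) and 0.00076 (5 CPM).

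Leaving out 1 library also turned uncalled values, over ranges of −0.0081 to 0.046 for TOP2A, −0.036 to 0.017 for CCNB1 and −0.049 to 0.15 for CENPF in H226. In ACHN the ranges were −0.040 to 0.033 for ECT2, −0.026 to 0.032 for NCAPG and −0.0067 to 0.081 for SMC4. In the difference they were −0.075 to 0.17 for MKI67, −0.055 to 0.049 for PLK1, −0.081 to 0.020 for CDK1 and −0.018 to 0.099 for CCNB1. The causes were not tested. Every member had at least 100 counts in every library, and the median SE of their log2 fold changes was 0.054 in H226 and 0.046 in ACHN. CDC25C in ACHN (0.21 ± 0.12) and NEK2 in H226 (0.20 ± 0.08) missed the threshold at a size that KIF20A passed in H226 (0.21 ± 0.04). Under DMSO CDC25C averaged 10.7 CPM in ACHN and NEK2 21.8 CPM in H226, against 172 CPM for KIF20A in H226. The part of depth in this was not tested.

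Replicate numbers recur in all groups, but same-numbered libraries did not deviate together (correlations of −0.097 to 0.058). With the replicate block, 17 members were lower and 3 higher in H226, 9 and 0 in ACHN, where AURKA and CDCA3 were not called, and 8 and 3 in the difference. CKAP5 was called in H226 with the block (adjusted p = 0.0267).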

Other observations

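Ratios of counts within a library do not depend on scaling. The pairs below were chosen after the values were seen and carry no test. In H226 the ratio of KIF23 to its centralspindlin partner RACGAP1 was 0.963 ± 0.0214 under SWTX-143 and 1.22 ± 0.0554 under DMSO (SD, n = 3 each). In ACHN it was 0.504 ± 0.0193 under SWTX-143 and 0.580 ± 0.00425 under DMSO. For the 2 midzone kinesins, KIF20A over KIF23 was 1.37 ± 0.0483 in treated H226 cells and 0.885 ± 0.0254 in DMSO cells, and 0.531 ± 0.0172 in treated ACHN cells and 0.412 ± 0.0110 in DMSO cells. HJURP over CENPA, the chaperone over the histone it loads, was 2.86 ± 0.119 in treated H226 cells and 3.82 ± 0.189 in DMSO cells. The ACHN values were 3.77 ± 0.139 under SWTX-143 and 3.89 ± 0.311 under DMSO, which overlapped.

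CCNA2 over CCNB1, a cyclin that peaks earlier over one that peaks at entry, was 0.407 ± 0.0201 in treated H226 cells and 0.496 ± 0.0135 in DMSO cells. In ACHN it was 0.739 ± 0.0194 under SWTX-143 and 0.769 ± 0.00480 under DMSO. ANLN over CCNB1 was 3.51 ± 0.00939 in treated H226 cells and 5.10 ± 0.0487 in DMSO cells, with libraries of each group close together. It was 4.47 ± 0.158 in treated ACHN cells and 5.21 ± 0.178 in DMSO cells. A ratio shows unequal change and does not say which gene moved.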
